A study of Mus musculus with 28 samples.

Results

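The genes described here are 8 genes of MHC class II antigen presentation, chosen by symbol from the 49492 gene symbols of a count table of mouse stomach RNA: H2-Aa, H2-Ab1, H2-Eb1, H2-DMa, H2-DMb1, Cd74, Ciita and Ctss. All 8 were in the table, and all 8 were among the 15812 genes that passed the filter on low counts. The samples were scrapings of the epithelium of the gastric corpus, which secretes acid, with 1 polyadenylated RNA library per mouse. Mice carrying a villin-PPARD transgene at 10, 25 and 55 weeks of age (5, 4 and 5 mice) were compared with their wild-type (WT) littermates at the same ages (5, 4 and 5 mice). PPARD is a nuclear receptor that binds lipids, and the promoter of villin drives expression mainly in gut epithelial cells. The labels name neither the mouse strain nor the number of transgenic founder lines.

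MHC class II molecules are pairs of an alpha and a beta chain that display peptides from the endosome to CD4+ T cells. The invariant chain, Cd74, fills the new molecule's groove, cathepsin S (Ctss) trims it down to a small fragment, and the H2-DM pair exchanges that fragment for a peptide. Ciita is the transactivator that switches on the genes of the chains, Cd74 and H2-DM together, through factors bound to the X and Y boxes of their promoters. Dendritic cells, macrophages and B cells express the pathway constantly, and epithelial cells can be induced to express it by interferon-gamma.

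The X and Y boxes can be read in the promoters, and they are shown as the letters through which Ciita is known to act. Whether they bear on the levels was not tested. RefSeq promoter windows (GRCm38.p6, 250 bases before to 50 bases after the start) were used for 5 of the 8 genes: H2-Aa, H2-Eb1, H2-DMa, H2-DMb1 and Ctss. In the 3 stretches that follow, the capitals mark letters of the X box (TGACG with its reverse complement in H2-Aa, AGCAAC and TGATGATG in H2-Eb1, TGATGATG in H2-DMb1) and then ATTGG, the reverse complement of the Y box core CCAAT.
H2-Aa, chr17:34287847-34287917, minus strand: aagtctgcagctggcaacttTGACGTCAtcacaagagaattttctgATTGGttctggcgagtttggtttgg
H2-Eb1, chr17:34305755-34305832, plus strand: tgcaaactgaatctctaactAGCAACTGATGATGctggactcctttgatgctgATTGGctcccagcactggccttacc
H2-DMb1, chr17:34153082-34153154, plus strand: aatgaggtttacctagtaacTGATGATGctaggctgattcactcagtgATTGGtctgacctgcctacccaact
The distance from the first base of the X2 letters to the first base of ATTGG was 26 bases in H2-Aa, 27 in H2-Eb1 and 28 in H2-DMb1. Searched on both strands, CCAAT was present in 37.4% of all 32851 mouse promoter windows, TGACG in 20.8%, AGCAAC in 14.8% and TGATGATG in 1.44%. The TGATGATG spelling was added after these windows had been read. Of the 2 windows of H2-DMa, 1 held ATTGG, 198 bases before the start, and neither held the X box letters. The Ctss window held no X or Y box letters and was the only one of the 5 genes' windows with a match to the interferon-stimulated response element, GAAA followed by any 2 bases and GAAA (capitals), which 3.44% of all windows hold.
Ctss, chr3:95526745-95526794, plus strand: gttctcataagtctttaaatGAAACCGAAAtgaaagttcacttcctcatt
The interferon-gamma activated site TTCNNNGAA, present in 8.3% of windows, was in none of these 5 genes' windows. These are matches of letters only.

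Library totals ranged from 10982888 to 30891108 counts. Levels are given as CPM, the usual depth-scaled unit of read counts, scaled between libraries with TMM factors. Ppard, the gene that names the transgene, lay between 79.7 and 125 CPM in villin-PPARD mice, against 60.3 to 85.6 CPM in WT mice, and the ranges overlapped at 25 and 55 weeks. Among the 52 pairs of libraries within a group, WT replicates 2 and 3 of 10 weeks were the most alike. Their counts differed by a chi-square of 4.26 per degree of freedom, above sampling noise, and every other pair gave 15.1 or more. The column names put replicates 1 to 3 of 10 weeks and most 25-week libraries in a first library group, and the other 10-week libraries with those of 55 weeks in a second. The genotypes at 55 weeks therefore share 1 library group, whereas the ages are partly confounded with it. The epithelial marker Epcam was between 274 and 742 CPM in villin-PPARD mice and between 216 and 286 CPM in WT mice, and the leukocyte marker Ptprc was present in all groups (1.84 to 15.1 CPM and 1.88 to 5.17 CPM).

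At 55 weeks all 8 genes were higher in villin-PPARD mice than in WT mice, by log2 differences of 1.92 to 3.53, in the edgeR quasi-likelihood test with adjustment over all genes. A gene is called here at an adjusted p under 0.05, and 31.7% of all genes tested were called higher in that comparison. H2-Eb1 averaged 0.174 to 0.495 CPM in the other groups, and the filter may have kept it for the villin-PPARD mice of 55 weeks alone. Its calls in comparisons with that group therefore add no support to the counts of called genes. The median log2 difference was 2.57 over the 8 genes and 0.03 over all genes tested. At 10 and 25 weeks 1 of the 8 was called, Ctss in both, where 17.9% and 21% of all genes were called higher. The median over the 8 was -0.03 at 10 weeks and -0.16 at 25 weeks. The libraries of the 2 genotypes did not overlap, with all villin-PPARD libraries above, for 2 genes at 10 weeks, 1 at 25 weeks and 6 at 55 weeks. The same was true of 14.5%, 14.9% and 23.9% of all genes. In these bulk libraries, a change in the number of cells of a type and a change in RNA per cell cannot be told apart.

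**Figure D1:**
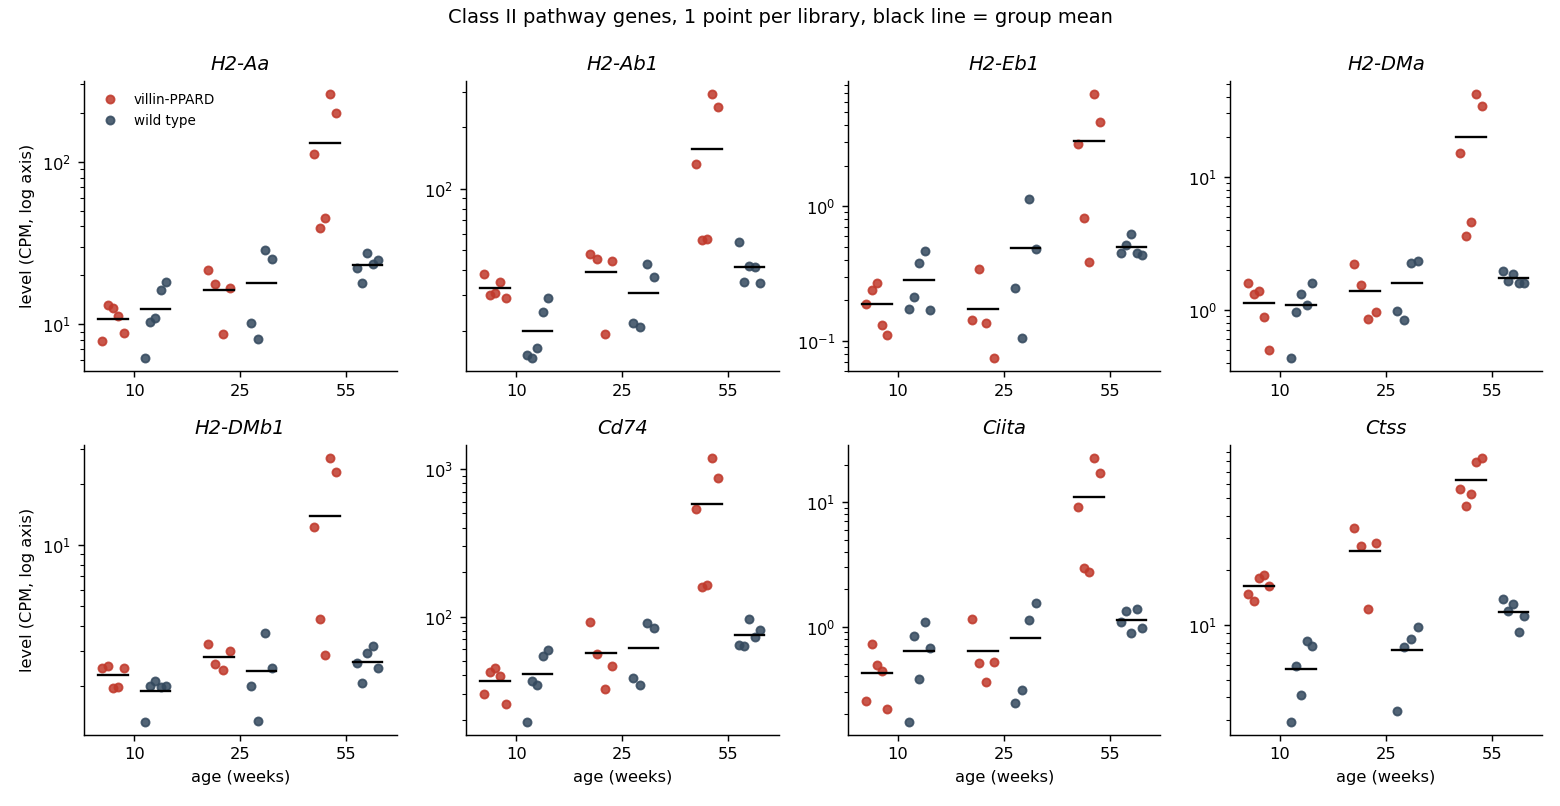
Level of each of the 8 genes in every library, in CPM on a log axis, by age in weeks, with villin-PPARD libraries in red to the left of WT libraries in blue and a black line at each group mean. The 5 villin-PPARD libraries of 55 weeks are spread widely, from 159 to 1192 CPM for Cd74, against 63.1 to 96.0 CPM in WT.

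H2-Aa (chr17:34282744-34287823, minus strand, GRCm38) and H2-Ab1 (chr17:34257689-34269419, plus strand) encode the alpha and beta chains of the class II molecule I-A. At 55 weeks H2-Aa was at 111, 39.3, 45.4, 261 and 201 CPM in villin-PPARD mice, against 22.2, 17.9, 27.4, 23.5 and 24.7 CPM in WT mice. Every villin-PPARD library lay above every WT library, with 3 of them far above. The log2 difference was 2.51 ± 0.43 (SE, adjusted p = 2.31e-05). At 10 weeks H2-Aa averaged 10.7 ± 2.31 CPM in villin-PPARD and 12.4 ± 4.88 CPM in WT (SD, n = 5 each), and at 25 weeks 16.2 ± 5.42 and 18.0 ± 10.4 CPM (SD, n = 4 each). The libraries overlapped at both ages.

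At 55 weeks H2-Ab1 was at 132, 55.9, 56.8, 291 and 252 CPM in villin-PPARD mice, against 55.1, 35, 41.6, 41.2 and 34.7 CPM in WT mice. The groups were separated by a narrow margin, between villin-PPARD replicate 2 and WT replicate 1, and the log2 difference was 1.92 ± 0.37 (adjusted p = 8.58e-05). At 10 weeks it was at 38.0, 30.3, 30.9, 34.9 and 29.1 CPM in villin-PPARD mice, against 15.3, 14.8, 16.6, 24.8 and 29.1 CPM in WT mice. The groups were separated only before rounding, with villin-PPARD replicate 5 just above WT replicate 5. The log2 difference of 0.71 ± 0.37 did not pass (adjusted p = 0.147), but it was called when only the 10-week groups were fitted (0.70, adjusted p = 0.00581), with limma-voom (0.82, adjusted p = 0.0354) and within the first library group (1.12, adjusted p = 0.0194). Within the second library group, with 2 mice per genotype, it was 0.26 (adjusted p = 0.854). At 25 weeks the log2 difference was 0.34 ± 0.41 (adjusted p = 0.534).

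H2-Eb1 (chr17:34305867-34316674, plus strand) encodes the beta chain of the second class II molecule, I-E, and was close to the limit of counting before 55 weeks. Single libraries of 10 and 25 weeks held 1 to 6 counts in villin-PPARD mice and 1 to 23 in WT mice. At 55 weeks it was at 2.93, 0.819, 0.385, 6.82 and 4.23 CPM in villin-PPARD mice, against 0.450, 0.517, 0.624, 0.453 and 0.431 CPM in WT mice. Villin-PPARD replicate 3, with 10 counts, lay below all WT libraries, so the groups overlapped. The log2 difference was 2.64 ± 0.53 (adjusted p = 1.09e-04). The count filter may have kept the gene for the villin-PPARD mice of 55 weeks alone, so this call has no weight in the counts. The annotated gene overlaps an antisense gene, Gm20513, and the libraries do not mark the strand, so reads of the 2 cannot be told apart.

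Cd74, the invariant chain (chr18:60803848-60812652, plus strand), had the highest mean CPM of the 8 in every group, although H2-Ab1 was above it in villin-PPARD replicates 1 and 5 of 10 weeks. At 55 weeks it was at 533, 159, 165, 1192 and 871 CPM in villin-PPARD mice, against 64.0, 63.1, 96.0, 72.5 and 81.3 CPM in WT mice. All 5 villin-PPARD libraries were above all WT libraries, and the log2 difference was 2.96 ± 0.46 (adjusted p = 6.21e-06). Its 10-week average was 36.4 ± 8.32 CPM in villin-PPARD and 40.8 ± 16.2 CPM in WT (SD, n = 5 each). At 25 weeks the averages were 56.4 ± 25.2 CPM in villin-PPARD and 61.6 ± 29.4 CPM in WT (SD, n = 4 each). The log2 differences at these ages, -0.15 ± 0.44 and -0.13 ± 0.49, were smaller than their standard errors.

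Ctss, the endosomal protease that degrades the invariant chain (chr3:95526786-95556403, plus strand), was higher at every age. At 10 weeks it was at 14.9, 13.6, 18.1, 18.9 and 16.5 CPM in villin-PPARD mice, against 2.94, 5.94, 4.11, 8.13 and 7.64 CPM in WT mice. At 25 weeks it was at 34.2, 27.4, 12.3 and 28.3 CPM, against 3.36, 7.60, 8.35 and 9.81 CPM. At 55 weeks it was at 56.1, 45.2, 52.7, 78.7 and 83.3 CPM, against 13.9, 11.9, 13.1, 9.19 and 11.2 CPM. The genotypes did not overlap at any age. The log2 differences were 1.54 ± 0.28, 1.80 ± 0.31 and 2.42 ± 0.27 from the youngest to the oldest mice (adjusted p = 1.49e-04, 7.02e-05 and 1.86e-08).

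H2-DMa (chr17:34119541-34139101, plus strand) and H2-DMb1 (chr17:34153072-34160230, plus strand) encode the peptide exchange factor H2-DM. At 55 weeks H2-DMa was at 15.1, 3.59, 4.54, 41.9 and 34.0 CPM in villin-PPARD mice, against 1.95, 1.63, 1.87, 1.58 and 1.60 CPM in WT mice. The groups were separated, and its log2 difference of 3.53 ± 0.53 was the highest of the 8 (adjusted p = 3.47e-06). H2-DMb1 was at 12.3, 4.32, 2.85, 27.0 and 23.1 CPM, against 2.60, 2.07, 2.94, 3.17 and 2.46 CPM. Its villin-PPARD replicate 3 lay within the WT range, and the log2 difference was 2.39 ± 0.40 (adjusted p = 1.31e-05). At 10 weeks the differences were 0.10 ± 0.65 for H2-DMa and 0.26 ± 0.45 for H2-DMb1, and at 25 weeks -0.25 ± 0.68 and 0.18 ± 0.48. H2-DMb1 has a near-identical neighbour, H2-DMb2, so the split of reads between them is uncertain, and the annotated H2-DMa overlaps Brd2 on the other strand.

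Ciita (chr16:10480059-10528418, plus strand), the transactivator, was at 9.12, 2.96, 2.77, 22.7 and 17.2 CPM in villin-PPARD mice of 55 weeks, against 1.10, 1.33, 0.891, 1.40 and 0.984 CPM in WT mice. The groups were separated, and the log2 difference was 3.24 ± 0.51 (adjusted p = 5.40e-06). Before that age the counts were low, at 4 to 24 per library in villin-PPARD mice and 3 to 29 in WT mice, and the log2 differences were -0.52 ± 0.71 at 10 weeks and -0.44 ± 0.72 at 25 weeks. Ciita overlaps Dexi on the other strand.

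**Figure D2:**
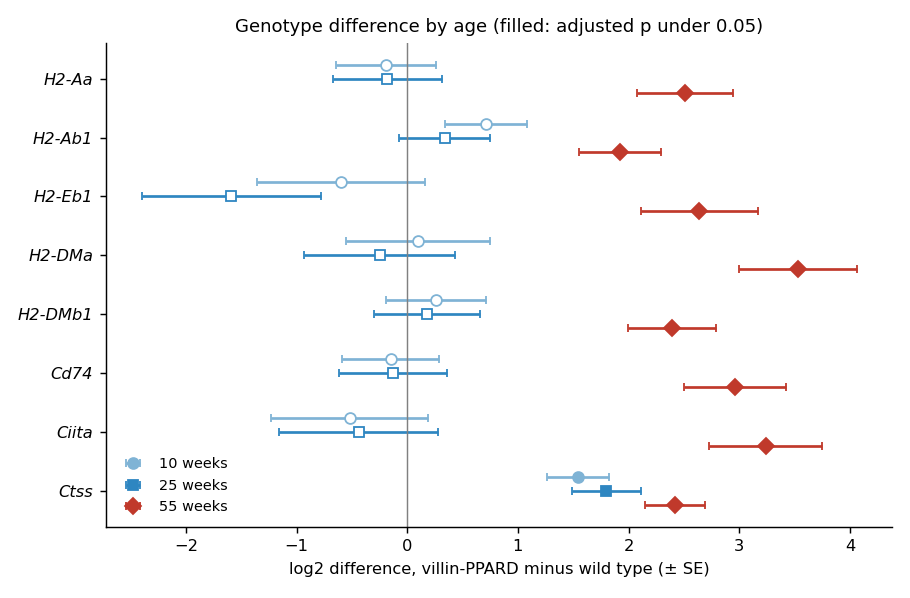
Log2 difference between villin-PPARD and WT for each gene at 10 weeks (circles), 25 weeks (squares) and 55 weeks (diamonds), with standard errors; filled points have an adjusted p under 0.05. Ctss is filled at all 3 ages, and the other 7 genes only at 55 weeks, where the differences run from 1.92 for H2-Ab1 to 3.53 for H2-DMa.

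Scaled by exon length, the levels kept nearly 1 order in all groups. The length joins the exons of all annotated transcripts, 3798 bases for H2-Aa and 1358 for Ctss, so the order depends on the annotation too. Before scaling, H2-Aa averaged 132 CPM and Ctss 63.2 CPM in villin-PPARD mice of 55 weeks. In CPM per kilobase, villin-PPARD mice of 55 weeks had 348 ± 268 of Cd74, 61.3 ± 42.6 of H2-Ab1, 46.5 ± 12.4 of Ctss, 34.6 ± 25.6 of H2-Aa, 8.28 ± 6.47 of H2-DMb1, 5.75 ± 5.04 of H2-DMa, 1.56 ± 1.35 of H2-Eb1 and 1.15 ± 0.925 of Ciita (SD, n = 5). WT mice of that age had 44.9 ± 8.15, 16.2 ± 3.22, 8.73 ± 1.34, 6.09 ± 0.922, 1.58 ± 0.254, 0.501 ± 0.0497, 0.255 ± 0.0407 and 0.120 ± 0.0230 CPM per kilobase of the same genes (SD, n = 5). The order of the group means was the same at 10 weeks in both genotypes and at 25 weeks in WT. In villin-PPARD mice of 25 weeks Ctss (18.8 ± 6.87) stood above H2-Ab1 (15.3 ± 5.21), within their spread. Among villin-PPARD mice of 55 weeks each neighbouring pair below Cd74 differed by less than the SD of at least 1 of the pair, except H2-Aa and H2-DMb1. In WT mice of 55 weeks the ranges of neighbours overlapped for Ctss with H2-Aa, and did not overlap for the other neighbours.

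Age was compared within each genotype. In villin-PPARD mice all 8 genes were higher at 55 than at 10 weeks, without overlap between the libraries, where 27.2% of all genes were called higher. The log2 differences ran from 1.95 ± 0.26 for Ctss through 3.62 ± 0.46 for H2-Aa and 4.00 ± 0.49 for Cd74 to 4.67 ± 0.58 for Ciita. All 8 were also called within the second library group, and with only the 2 groups fitted 7 were called, without H2-Eb1. The count filter may have kept H2-Eb1 for the villin-PPARD mice of 55 weeks alone, so its call adds no support here. Between 25 and 10 weeks in villin-PPARD mice, edgeR and DESeq2 called 0 of the 8 and limma-voom called Ctss, against 1.99% of all genes higher. Ctss alone had an unadjusted p under 0.05 (log2 difference 0.63 ± 0.27, adjusted p = 0.169), and it was called without villin-PPARD replicate 3 of 25 weeks.

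In WT mice 1 of the 8 was called higher at 55 than at 10 weeks, Ctss (1.07 ± 0.29, adjusted p = 0.0151), against 6.43% of all genes. H2-Ab1 (1.06 ± 0.37, adjusted p = 0.0617) and Cd74 (0.89 ± 0.44, adjusted p = 0.186) did not pass, although all their libraries of 55 weeks lay above those of 10 weeks. This count depended on the fit. It was 0 without WT replicate 1 of 10 weeks, with a term for library group and within the second library group, 2 without WT replicate 5 of 10 weeks, with DESeq2 and with limma-voom, and 4 when only the 2 groups were fitted. Between 25 and 10 weeks in WT mice edgeR, DESeq2 and limma-voom called 0 of the 8, and none had an unadjusted p under 0.05, where 0.0126% of all genes were called higher. At 10 weeks the WT libraries themselves were uneven: Cd74 was at 19.4, 36.4 and 34.4 CPM in replicates 1 to 3 of the first library group and at 53.9 and 59.7 CPM in replicates 4 and 5 of the second. In the same order, the summed level of 7 fibroblast markers was 106, 218, 224, 328 and 350.3 CPM and that of 22 dendritic cell and macrophage markers was 40.7, 73.2, 72.7, 99.3 and 107 CPM. Their part in the age difference was not tested.

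The change of the genotype difference with age was tested directly. From 10 to 55 weeks the difference grew for 6 of the 8 genes, by 2.13 ± 0.60 for H2-DMb1 (adjusted p = 0.00648), 2.70 ± 0.62 for H2-Aa (0.00124), 3.11 ± 0.63 for Cd74 (3.74e-04), 3.24 ± 0.94 for H2-Eb1 (0.0075), 3.42 ± 0.84 for H2-DMa (0.00239) and 3.76 ± 0.88 for Ciita (0.00138), on the log2 scale. It was called to grow for 18.4% of all genes. H2-Eb1 is among the 6, although the count filter may have kept it for the villin-PPARD mice of 55 weeks alone. H2-Ab1 (1.21 ± 0.52, adjusted p = 0.0706) and Ctss (0.88 ± 0.38, adjusted p = 0.0744) did not pass. Both were called with library size alone as the scaling, and Ctss also with DESeq2, with limma-voom, which lost H2-DMb1, and with only the groups compared. Both were called without villin-PPARD replicate 2 of 55 weeks, H2-Ab1 without replicate 3 of that group, and Ctss without WT replicate 1 of 10 weeks. Within the second library group, where 2 mice of 10 weeks remain per genotype, 3 were called: H2-Aa, Cd74 and Ctss.

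From 25 to 55 weeks the difference grew for 7 of the 8 genes, against 14.3% of all genes, by 1.58 ± 0.55 for H2-Ab1 (adjusted p = 0.0321) to 4.23 ± 0.96 for H2-Eb1 (0.00137). Ctss did not pass (0.62 ± 0.40, adjusted p = 0.261). H2-Eb1 is among the 7, with the same limit of the count filter. The call of H2-Ab1 was lost without any 1 of villin-PPARD replicate 3 or WT replicates 3 or 4 of 25 weeks, villin-PPARD replicates 4 or 5 or WT replicate 2 of 55 weeks. It was also lost with no count filter, with only the groups compared and with a term for library group, and limma-voom lost H2-DMb1 in its place. From 10 to 25 weeks edgeR, DESeq2 and limma-voom called 0 of the 8, none had an unadjusted p under 0.05, and edgeR called 0% of all genes higher.

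The 5 villin-PPARD mice of 55 weeks differed strongly among themselves. Replicate 4 had the highest level of 7 of the genes and replicate 5 the highest level of Ctss, while replicates 2 and 3 had the 2 lowest levels of all 8. The highest library over the lowest was 6.65-fold for H2-Aa, 5.21-fold for H2-Ab1, 17.7-fold for H2-Eb1, 11.7-fold for H2-DMa, 9.48-fold for H2-DMb1, 7.49-fold for Cd74, 8.18-fold for Ciita and 1.84-fold for Ctss. In WT mice of 55 weeks these ratios were 1.23-fold to 1.59-fold. Among the 8175 genes with a mean of at least 10 CPM in the villin-PPARD mice of 55 weeks, the median ratio was 1.28, and 18 genes (0.220%) reached that of Cd74.

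Of 5 other class II chains, 4 passed the count filter, and these were higher at 55 weeks. The filter can keep a gene that reaches its minimum in the libraries of 1 group alone, and H2-Oa, H2-Ob and H2-Ea-ps averaged 0.0889 to 0.386 CPM in the other 5 groups, so the count does not describe the list. H2-DMb2, the copy of H2-DMb1, averaged 13 ± 9.45 CPM in villin-PPARD and 2.49 ± 0.826 CPM in WT (log2 difference 2.40, adjusted p = 7.75e-06). H2-Oa and H2-Ob, which form a modulator of H2-DM, differed by 1.27 and 1.33, and H2-Ea-ps, annotated as a pseudogene of the I-E alpha chain, by 1.97. At 10 weeks the differences of these 4 ran from -0.53 to 0.87 with no adjusted p under 0.304. H2-Eb2 was below the count filter, with 55 counts over the villin-PPARD mice of 55 weeks and 5 over the WT mice.

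Other regulators of class II, among them the factors bound at the X and Y boxes, did not move in 1 direction. Of 11, 5 were higher and 2 lower at 55 weeks, with a median log2 difference of 0.19. Of all 15812 genes tested 5009 were higher and 4371 lower, a like share. Among the 5 was March1, named after its values were seen, which averaged 0.272 to 0.476 CPM in the other groups. The filter may have kept it for the villin-PPARD mice of 55 weeks alone, so its call adds nothing to that comparison. RFX, which binds the X box, is built of Rfx5, Rfxap and Rfxank. Rfx5 averaged 14.4 ± 2.73 CPM in villin-PPARD and 8.96 ± 0.912 CPM in WT (0.69, adjusted p = 3.84e-05), whereas Rfxank averaged 12.2 ± 2.16 and 21.6 ± 1.88 CPM (-0.83, adjusted p = 6.02e-07). Nfyb, a subunit of the Y box factor NF-Y, was higher by 0.53 (adjusted p = 7.77e-05), and Zxdc, a cofactor of Ciita, by 0.46 (adjusted p = 2.56e-04). At 10 weeks 1 of the 11 was called, Rfxap, which was lower (-0.36), and at 25 weeks 1, Nfyb, which was higher (0.40). Of all genes tested, 5380 and 6262 were called at these ages.

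Of 11 other genes of endosomal processing, 8 were higher at 10 weeks, 7 higher and 2 lower at 25 weeks, and 6 higher and 2 lower at 55 weeks. Of all genes, 17.9%, 21% and 31.7% were higher at these ages. The protease Ctsh averaged 65.0 CPM in villin-PPARD and 20.6 CPM in WT at 55 weeks (1.65), and differed by 0.43 and 0.72 at 10 and 25 weeks. Ctsl, an invariant chain protease in some epithelia, differed by 0.96, 1.57 and 1.34 at the 3 ages, and Ctsc, which activates other proteases, by 0.57, 0.80 and 1.17. Unc93b1, which carries Toll-like receptors to endosomes, differed by 1.07, 0.51 and 1.60. All of these passed the test at every age, as Ctss did. Other genes of the list, named after their values were seen, did not. Ifi30 differed by 0.60 at 10 weeks and -0.39 at 55 weeks, and Ctsb by 0.92 and -0.08. Ctsd was lower at 25 weeks (-0.71), and Cst3 at 25 and 55 weeks (-0.42 and -0.32). The summed level of the 11 was 2815 to 3617 CPM in villin-PPARD and 2720.2 to 3481 CPM in WT at 55 weeks.

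Most interferon-gamma signalling genes of the list were already higher at 10 weeks. Of 10 tested, 8 were higher at each age, against 17.9%, 21% and 31.7% of all genes, but not the same 8. Named after their values were seen, Cxcl9 and Cxcl10 were not called at 10 weeks, nor Ifngr1 and Jak2 at 55 weeks. Outside the villin-PPARD mice of 55 weeks, Cxcl9 and Cxcl10 averaged at most 0.386 CPM per group. The filter may have kept them for that group alone, so the count at 55 weeks does not describe the list. The transcription factor Irf1, which interferon-gamma induces, averaged 77.5 ± 13.2 CPM in villin-PPARD and 23.9 ± 3.78 CPM in WT at 10 weeks (SD, n = 5 each). Its log2 differences were 1.70, 1.55 and 1.85 at 10, 25 and 55 weeks, and the feedback inhibitor Socs1 differed by 2.84, 2.65 and 3.21. Irf8, a factor of myeloid and B cells, differed by 0.79, 0.24 and 1.24, and did not pass at 25 weeks (adjusted p = 0.206).

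Chosen after their values were seen, the interferon-gamma-induced chemokine Cxcl9 and the cytokine gene Ifng, which was below the count filter and not tested, had their counts mainly in villin-PPARD mice of 55 weeks. Cxcl9 was at 5.95, 1.50, 0.731, 8.20 and 8.41 CPM in villin-PPARD mice of 55 weeks, against 0 to 0.0905 CPM in WT mice. The same 2 replicates were lowest as for Cd74. At 10 weeks it was between 0 and 0.275 CPM in villin-PPARD and between 0 and 1.15 CPM in WT. Ifng had 38 counts over the 5 villin-PPARD mice of 55 weeks, up to 20 in 1 library, and 1 count over the WT mice. It had 0 counts in every library of 10 and 25 weeks.

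Of 6 costimulatory genes, whose proteins accompany class II in T cell activation, 5 passed the count filter. At 55 weeks 4 of these were higher and 1 lower, where 31.7% of all genes were higher. Outside the villin-PPARD mice of 55 weeks, Cd80 and Cd40 averaged at most 0.276 CPM per group. The filter may have kept them for that group alone, so the count does not describe the list. Pdcd1lg2 was below the filter, with 33 counts over the villin-PPARD mice of 55 weeks and 1 over the WT mice. Cd274, which encodes the inhibitory ligand PD-L1, differed by 1.41, 1.56 and 2.33 at the 3 ages and passed at each. Cd80 averaged 0.847 CPM in villin-PPARD and 0.0750 CPM in WT at 55 weeks, and Cd40 1.05 and 0.197 CPM. Icosl was lower, at 32.5 and 58.2 CPM (-0.84, adjusted p = 2.91e-06).

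MHC class I presentation, which displays peptides from the cytosol, was higher in villin-PPARD mice from 10 weeks on. All 14 genes of that list were higher at each age, against 17.9%, 21% and 31.7% of all genes. Their median log2 differences were 2.26, 2.23 and 2.37, against -0.03, -0.01 and 0.03 over all genes tested. H2-K1, a class I heavy chain, averaged 1412 CPM in villin-PPARD and 200.2 CPM in WT at 55 weeks (2.82), and differed by 2.56 and 2.59 at 10 and 25 weeks. The light chain B2m differed by 2.31, 2.76 and 2.60, and the immunoproteasome subunits Psmb8 and Psmb10 by 4.26, 3.82 and 4.85 and by 2.21, 1.63 and 2.37. From 10 to 55 weeks the difference grew for 1 of the 14, Erap1 (1.24 ± 0.23, adjusted p = 7.17e-05), against 18.4% of all genes. From 25 to 55 weeks it grew for 3, against 14.3% of all genes. Class I heavy chain genes are near-identical copies, so the split of reads among them is uncertain.

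Nlrc5, the class I counterpart of Ciita and named here after its values were seen, was at 28.6 ± 5.70 CPM in villin-PPARD and 0.656 ± 0.158 CPM in WT at 10 weeks. At 25 weeks it was at 34.5 ± 14.7 and 1.12 ± 1.17 CPM, and at 55 weeks at 46.6 ± 20.3 and 0.852 ± 0.351 CPM (SD, n = 5, 4 and 5). Its log2 differences were 5.46, 4.77 and 5.79, against -0.52, -0.44 and 3.24 for Ciita at the same ages. Within villin-PPARD mice of 55 weeks the highest library was 3.47-fold the lowest for Nlrc5 and 8.18-fold for Ciita.

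**Figure D3:**
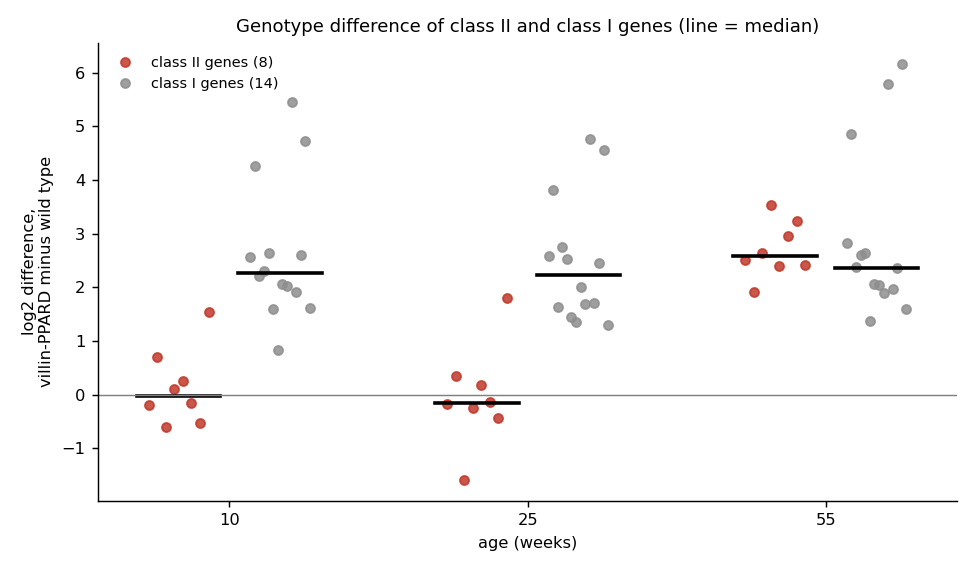
Log2 difference between villin-PPARD and WT for the 8 class II genes (red) and the 14 class I genes (grey) at 10, 25 and 55 weeks, 1 point per gene with a line at the median. The class II medians were -0.03, -0.16 and 2.57, and the class I medians 2.26, 2.23 and 2.37.

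Markers of the cells that express class II constantly changed between the genotypes at 55 weeks as well. Of 19 dendritic cell and macrophage markers tested, 14 were higher, against 31.7% of all genes, and 1, Zbtb46, was lower. Ratios of class II genes to these levels are given further on, but the part of these cells in the class II difference was not tested. Named after their values were seen, Flt3 averaged 0.812 CPM in villin-PPARD and 0.433 CPM in WT, and Xcr1 0.317 and 0.574 CPM. Flt3 was called higher at 55 weeks but lower at 25 weeks (-2.89), and Xcr1 did not pass (-0.82). The filter may have kept Flt3 for the villin-PPARD mice of 55 weeks alone. Cd14 averaged 104 ± 24.7 CPM in villin-PPARD and 4.01 ± 0.405 CPM in WT, Itgam 8.23 and 2.52 CPM, Mpeg1 64.3 and 18.9 CPM, and Cd68 12.1 and 5.38 CPM. The pan-leukocyte gene Ptprc was at 9.80, 7.00, 8.85, 15.1 and 15 CPM in villin-PPARD mice, against 4.65, 5.17, 4.90, 4.71 and 3.94 CPM in WT mice (log2 difference 1.26, adjusted p = 2.20e-04). The summed level of the list of 22 was 269 to 485 CPM in villin-PPARD and 126 to 139 CPM in WT at 55 weeks, with replicates 4 and 5 highest and replicate 2 lowest. The dendritic cell markers Clec9a, Cd209a and Batf3 were below the count filter, with 14, 32 and 40 counts over the villin-PPARD mice of 55 weeks and 20, 26 and 11 over the WT mice.

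Of 12 B and plasma cell markers 6 passed the count filter, and of 12 T and NK cell markers 7. These were higher at 55 weeks, but several, such as Mzb1, Cd79b, Cd2 and Gzmb, averaged at most 0.379 CPM in each of the other groups, so for the same reason the counts do not describe the lists. The plasma cell gene Jchain averaged 174 ± 65.0 CPM in villin-PPARD and 24.5 ± 4.86 CPM in WT, Cd79a 3.26 ± 1.37 and 0.474 ± 0.231 CPM, Mzb1 3.91 and 0.379 CPM, and Cd79b 1.16 and 0.230 CPM. Of the T and NK markers, Cd3e averaged 2.55 ± 1.24 and 0.594 ± 0.213 CPM, Cd3g 2.71 and 0.462 CPM, Cd2 0.750 and 0.124 CPM, and Gzmb 2.07 ± 1.34 and 0.0223 ± 0.0308 CPM. The summed level of the B and plasma cell list was 83.7 to 272 CPM in villin-PPARD and 20.8 to 31.5 CPM in WT, and that of the T and NK list was 8.69 to 26.3 and 3.94 to 5.62 CPM. The mature B cell marker Ms4a1 was below the count filter, with 65 counts over the villin-PPARD mice of 55 weeks and 21 over the WT mice. Cr2 and Tnfrsf17 had 0 counts in all villin-PPARD libraries of 10 and 25 weeks. The part of lymphocyte RNA in the class II difference was not tested.

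At 10 weeks these lists were mostly close to level between the genotypes. The genes called were 2 of the 19 dendritic cell and macrophage markers, Mpeg1 and Cd68, and 1 of the 6 B cell markers, Cd22. Of all genes tested, 17.9% were called higher at that age. At 55 weeks, 5009 of all 15812 genes tested were higher and 4371 lower. Of 7 fibroblast markers, 1 was called at that age, Lum, and it was lower. Their summed level was 379 to 649 CPM in villin-PPARD and 417 to 517 CPM in WT. Of 15 corpus epithelium markers, 3 were higher and 10 lower at 55 weeks, and their summed level was 43670.3 to 82263 CPM in villin-PPARD and 205543 to 277263 CPM in WT. Atp4a, of the acid pump, averaged 185 CPM in villin-PPARD and 4874 CPM in WT, and Epcam 661 and 249 CPM. Of 8 endothelial markers, 2 were higher and 2 lower at 55 weeks, near the shares of all genes.

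**Figure D4:**
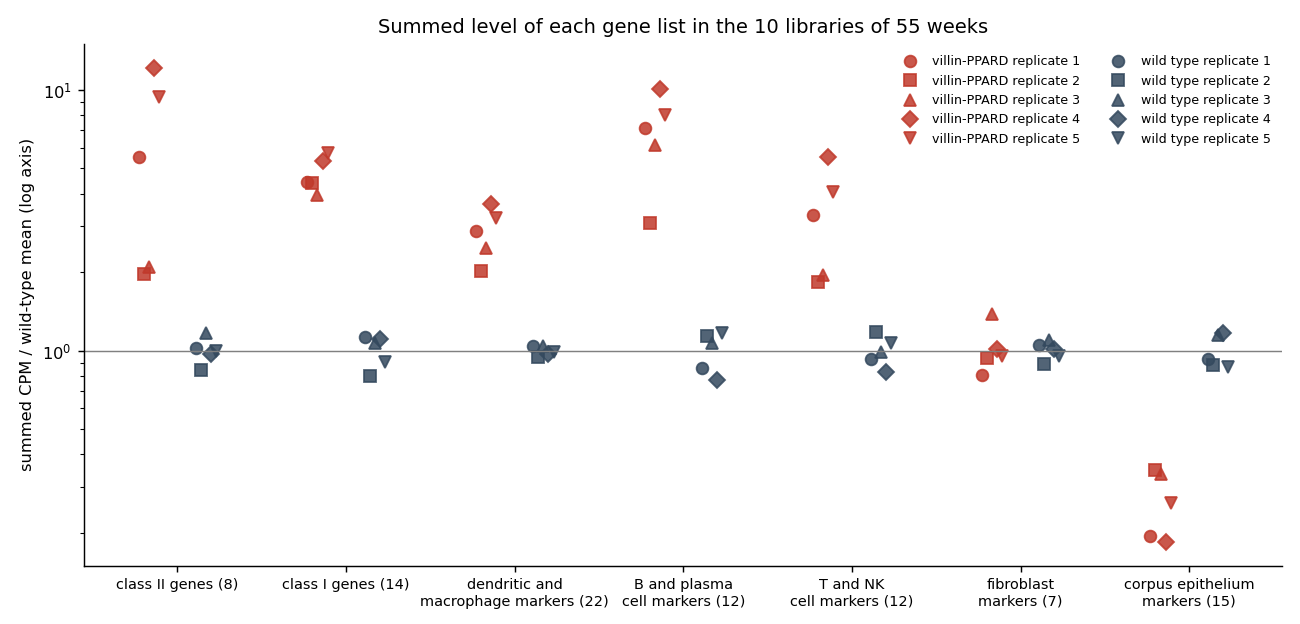
Summed CPM of each gene list in the 10 libraries of 55 weeks, divided by the mean of the WT libraries and drawn on a log axis, with villin-PPARD in red to the left of WT in blue and 1 symbol per replicate. The 8 class II genes sum to 311 to 1922 CPM in villin-PPARD and 133 to 185 CPM in WT; replicates 4 and 5 are highest in the class II and leukocyte lists, and the fibroblast lists overlap.

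Class II levels were also divided by leukocyte levels within each library, in 18 comparisons chosen after the values were seen and tested with two-sided exact permutation tests. At 55 weeks Ciita over Ptprc was 0.863 ± 0.498 in villin-PPARD and 0.245 ± 0.0420 in WT (SD, n = 5 each), without overlap (exact permutation p = 0.00794, the smallest that 5 against 5 allow, and 0.0476 adjusted over the 18). Cd74 over Ptprc was 46.6 ± 25.5 and 16.3 ± 3.68 (exact permutation p = 0.0238, adjusted 0.103). H2-Aa over Ptprc was 10.6 ± 5.21 and 5.02 ± 1.05 (exact permutation p = 0.0556, adjusted 0.103). Over the summed dendritic cell and macrophage list, Cd74 was 1.40 ± 0.862 and 0.566 ± 0.0927 at 55 weeks (exact permutation p = 0.0952, adjusted 0.156), Ciita 0.0260 ± 0.0171 and 0.00864 ± 0.00196 (exact permutation p = 0.0317, adjusted 0.103) and H2-Aa 0.317 ± 0.183 and 0.174 ± 0.0226 (exact permutation p = 0.175, adjusted 0.224). The genotypes overlapped in all 3, and Ciita over Ptprc was the only ratio of the 6 at 55 weeks that passed after adjustment. Cd14, which is in the list, averaged 104 ± 24.7 CPM in villin-PPARD and 4.01 ± 0.405 CPM in WT at 55 weeks. The sum thus rests partly on 1 gene. A ratio to a leukocyte level cannot tell which cells hold the class II RNA, so the part of leukocytes was not tested by it.

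At 10 weeks the ratio to that list went the other way. Cd74 over the list was 0.323 ± 0.0483 in villin-PPARD and 0.509 ± 0.0383 in WT, and H2-Aa over the list 0.0955 ± 0.0146 and 0.156 ± 0.0118 (exact permutation p = 0.00794 each, adjusted 0.0476). Mpeg1, which is in the list, averaged 38.2 ± 2.55 CPM in villin-PPARD and 10.4 ± 2.08 CPM in WT at 10 weeks. Over Ptprc, Cd74 was 12.2 ± 2.21 and 13.3 ± 3.58 at 10 weeks (exact permutation p = 0.635, adjusted 0.635). No ratio of 25 weeks passed after adjustment, and 4 against 4 mice cannot give a p below 0.0286.

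Over the 28 libraries, the genes whose log2 CPM was most like the mean of the 8 standardised levels were Itgb2, H2-DMb2, Tgtp2, Alpl, Tmem173, Tnfaip2, Spn, Ccl6, Ccdc88b and Ccr1. Their Pearson correlations were 0.93 to 0.95, on deviations from the group means 0.70 to 0.90, and 0.59 to 0.74 over the 23 libraries without villin-PPARD mice of 55 weeks. Itgb2 encodes a leukocyte integrin chain, Spn a leukocyte surface sialoprotein, Ccr1 a chemokine receptor and Ccl6 a chemokine. Tgtp2 is an interferon-inducible GTPase and Tmem173 encodes the DNA sensing adaptor STING. Of the 8 genes themselves, 7 correlated with that mean, which includes them, at 0.91 to 0.99, and Ctss at 0.81. These libraries share their groups, depth and cell makeup, so the values describe likeness only.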

How the data were processed

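The deposited values are raw read counts per gene symbol in 28 libraries. Per the submitters' processing notes, the authors used mm10, TopHat2 2.0.14, HTSeq 0.6.1 and DESeq2 (no version); neither the gene models nor a strand option is named. Per the labels' protocols, the kit was TruSeq RNA v2 on poly-A RNA, which does not mark the strand. No molecular identifiers are mentioned, and counting error is only part of the spread between mice.

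From these counts edgeR 4.0.16 (R 4.3.3) gave TMM-scaled CPM and two-sided robust quasi-likelihood F tests. All 28 libraries entered a single model with 6 group means, from which 10 contrasts were drawn, after filterByExpr had kept 15812 of the 49492 symbols. P-values were adjusted over all 15812 by the Benjamini-Hochberg method, with a threshold of 0.05. The printed SE equals the absolute log2 difference over the root of F. Other fits changed the scaling, the filter, the tool (DESeq2 1.42.0 Wald test, limma 3.58.1 voom with sample weights), the libraries fitted, a library-group term or a replicate block, and each library was left out in turn. Separate fits inside each library group were chosen after seeing the data. WT replicate 3 of 25 weeks, whose column is tagged as a replacement, is dropped from fits that use library groups.

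The 8 genes and the gene lists were chosen with earlier results of these data known. Beyond the 8, a gene is named if it is among the 4 of its list with the smallest adjusted p for genotype at any age, is a marker near 0 counts, is among the 10 genes most alike over the libraries, or is said to be chosen after its values were seen. A few genes that this rule names are not reported here. Positions and exon lengths are from GENCODE M21 (GRCm38). The series' description gives 4 or 5 mice per group, which equals the number of libraries, so each library was taken as 1 mouse. Same-numbered libraries of the 2 genotypes did not deviate together: 3 of 14 pairs had a correlation of deviations over 0.1 (range -0.42 to 0.23), so the numbers were not treated as pairs.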

Additional observations from a re-analysis of the deposited data

Results flagged for a closer look

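Of 48 groups of libraries tested for a library far from the rest, which chance flags in about 1 in 20, 2 were flagged. H2-Ab1 in villin-PPARD mice of 25 weeks had a low library, replicate 3 at 19.3 CPM, against 44.0 to 48.1 CPM in the other 3. The same library was also the lowest of its group for Ctss, at 12.3 CPM, and its summed fibroblast markers were 168 CPM, against 446 to 503 CPM in the other 3. H2-DMb1 in WT mice of 10 weeks had a low library, replicate 1 at 1.34 CPM, against 1.98 to 2.12 CPM in the other 4. That library had the lowest Cd74 of its group, at 19.4 CPM, and the lowest summed fibroblast markers, at 106 CPM. The part of stromal or leukocyte RNA in these values was not tested.

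The genotype difference itself differed between ages, by the edgeR test of the change. The values of H2-Eb1 carry the limit of the count filter given above. From 10 to 55 weeks it grew on the log2 scale by 2.70 for H2-Aa, 3.24 for H2-Eb1, 3.42 for H2-DMa, 2.13 for H2-DMb1, 3.11 for Cd74 and 3.76 for Ciita. From 25 to 55 weeks it grew by 2.69 for H2-Aa, 1.58 for H2-Ab1, 4.23 for H2-Eb1, 3.78 for H2-DMa, 2.21 for H2-DMb1, 3.09 for Cd74 and 3.68 for Ciita. The libraries of 25 weeks share no library group with those of 55 weeks, so a change of the difference from 25 to 55 weeks and a library group that acts on 1 genotype cannot be told apart.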

How the results depend on the processing

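The number of the 8 genes called for genotype was 1 at 25 weeks and 8 at 55 weeks under every alternative run. The counts that involve villin-PPARD mice of 55 weeks may include H2-Eb1, with the limit of the count filter given above. At 10 weeks it was 2 instead of 1 with limma-voom, with only the groups compared and within the first library group, H2-Ab1 being added. For 25 against 10 weeks in villin-PPARD it was 1 instead of 0 with limma-voom, and 0 to 1 over the removal of single libraries. For 55 against 10 weeks in WT it was 1, but 2 with DESeq2 and limma-voom, 4 with only the groups compared, 0 with a term for library group and within the second library group, and 0 to 2 over the removal of single libraries. For the growth of the difference from 10 to 55 weeks it was 6, but 8 with library size alone, 7 with DESeq2 and with only the groups compared, and 3 within the second library group, where fewer libraries were fitted. Leaving out 1 library gave 6 to 8 from 10 to 55 weeks and 6 to 7 from 25 to 55 weeks.

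Uncalled log2 differences near 0 changed sign. At 25 weeks Cd74 was 0.01 with library size alone, and H2-Aa and Cd74 were 0.13 and 0.11 with a term for library group and 0.17 and 0.14 within the first library group. At 10 weeks H2-DMa was -0.13 with limma-voom and -0.88 within the second library group, and H2-Aa, Cd74 and Ciita were 0.33, 0.41 and 0.14 within the first. Over the removal of single libraries H2-DMa ranged from -0.12 to 0.29 and Cd74 from -0.34 to 0.02 at 10 weeks, and H2-Aa from -0.39 to 0.14, Cd74 from -0.47 to 0.12 and Ciita from -0.93 to 0.05 at 25 weeks. The cause was not tested. The replicate block, fitted for genotype and its change with age but not for age alone, left 1, 1, 8, 0 and 6 genes called and removed H2-Ab1 from the 7 called from 25 to 55 weeks, leaving 6. Depth limits H2-Eb1 most: before 55 weeks it had 1 to 6 counts per villin-PPARD library and 1 to 23 per WT library.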
